A study of Mus musculus with 16 samples.

Results

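Mitochondrial ribosomal protein genes encode the protein part of the ribosome that works inside mitochondria. Rows of the deposited tables whose gene name begins with Mrpl or Mrps followed by a number were taken as members, and this gave 76 genes among the 26219 genes listed. Members were kept where at least 2 of the 8 wild-type libraries held 5 RPM (reads scaled to a common library total) or more, which left 75 genes, 46 named for the large subunit and 29 for the small. The gene left out was Mrpl21, a large-subunit gene at 1.37 to 4.51 RPM in the wild-type libraries. Mrpl36 was the member nearest the threshold on the inside and was kept through both E11.5 libraries alone (6.06 and 5.12 RPM), with Mrps17 next.

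The mitochondrial ribosome descends from a bacterial ribosome and translates the few respiratory chain proteins that mitochondrial DNA still encodes. Its ribosomal RNAs are made in the mitochondrion, whereas all of its proteins are encoded in the nucleus, made in the cytosol and imported. Some of these proteins have a bacterial counterpart and others were added during the evolution of mitochondria. Primordial germ cells (PGCs), the precursors of sperm and eggs, settle in the gonads around the middle of gestation, after which female germ cells enter meiosis and male germ cells stop dividing.

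The series measured RNA from sorted mouse PGCs by sequencing of transcript 3′ ends in 16 libraries. In the floxed set, on a C57BL/6 background and collected at E11.5 (embryonic day), the 4 Control libraries had the genotype Prdm1(flox/flox); Rosa26(neo-EYFP/+). The 4 CKO libraries carried the same alleles plus the transgene Dppa3-MCMP(Tg/0), an inducible Cre driven by Dppa3, a gene expressed in germ cells. All of these embryos, Controls included, developed in mothers given 3 mg of 4-OHT (4-hydroxytamoxifen) per 25 g of body weight at 10.5 dpc. The wild-type set, of strain ICR:C57BL/6=1:1 and genotype Dppa3(EGFP/+), had 2 libraries each at E10.5, at E11.5, from E13.5 males and from E13.5 females, and the labels give the 4-OHT injection for mothers with floxed Prdm1 only. Per the labels, the floxed cells were collected by EYFP fluorescence and by an antibody to SSEA-1, without a statement of which sort served which group. The Cre transgene was in the CKO libraries alone, so Prdm1 deletion, transgene and any difference in sort cannot be told apart. Since the labels tie no library to an embryo or litter, the replicates may be technical, and p-values speak only of the spread between these libraries.

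Depth, read from the step between low values, was about 2798000 to 5032000 reads in the floxed and 1485000 to 4783000 in the wild-type libraries. A floor of 3 reads lay at 0.596 to 2.02 RPM, below the mean wild-type level of every kept member, and it covers counting error only. Prdm1, the gene targeted for deletion, stood at 50.7 to 73.0 RPM in the Control and 76.6 to 89.4 RPM in the CKO libraries. A 3′ read can lie outside the deleted part of the gene, so its level is no check of the deletion, and the libraries are called CKO-labelled. All 10 germ cell markers were detected in every library, with summed levels of 3322 to 4089 RPM in the floxed and 4655 to 9538 RPM in the wild-type set. In bulk libraries, fewer cells of a type and less RNA per cell cannot be told apart.

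The members were moderately expressed as a class and took a small share of the reads. Together they made up 0.736% ± 0.00640 of reads at E10.5, 0.850% ± 0.0321 at E11.5, 0.860% ± 0.0131 in E13.5 males and 0.799% ± 0.0123 in E13.5 females (SD, n = 2 each). The median member had a wild-type mean of 94.7 RPM, against 29.4 RPM for the median of all genes tested and 2398 RPM for the median cytosolic ribosomal protein gene. Large-subunit genes had a median of 107.8 RPM with a range of 4.45 to 325 RPM, and small-subunit genes a median of 79.8 RPM with a range of 8.85 to 191 RPM. These values count 3′ reads and are not divided by transcript length, and how well each 3′ end was captured was not tested, so an order between genes is an order of reads.

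By the mean over all 8 wild-type libraries, Mrpl15, Mrpl42 and Mrpl23 ranked highest in the large subunit. Mrpl15 gave 266 to 366 RPM over the 8 wild-type libraries, Mrpl42 256 to 412 RPM and Mrpl23 211 to 443 RPM, so that these neighbours overlapped. The order differed between stages, and at E10.5 Mrpl18 led with 334 ± 3.73 RPM (SD, n = 2). Mrpl15 and Mrpl23 belong to the set with bacterial counterparts, whereas Mrpl42 is a mitochondrial addition. The lowest kept members were Mrpl12, which encodes the stalk protein that recruits translation factors, at 11.3 to 23.4 RPM, Mrpl9 at 12.7 to 17.7 RPM and Mrpl36 at 3.16 to 6.06 RPM. In the small subunit Mrps24 (89.8 to 256 RPM), Mrps16 (103 to 232 RPM) and Mrps12 (123 to 231 RPM), each with a bacterial counterpart, ranked highest by the same mean, and Mrps2, Mrps5 and Mrps17 lowest, at 5.02 to 18.9 RPM in all. The ranges of these last 3 overlapped. At E10.5 Mrps24 (89.8 and 117 RPM) and Mrps16 (103 and 109 RPM) lay below Mrps12 (132 and 123 RPM) and Mrps28 (118 and 120 RPM), and in the floxed set Mrps14 led with 168 to 208 RPM.

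**Figure D1:**
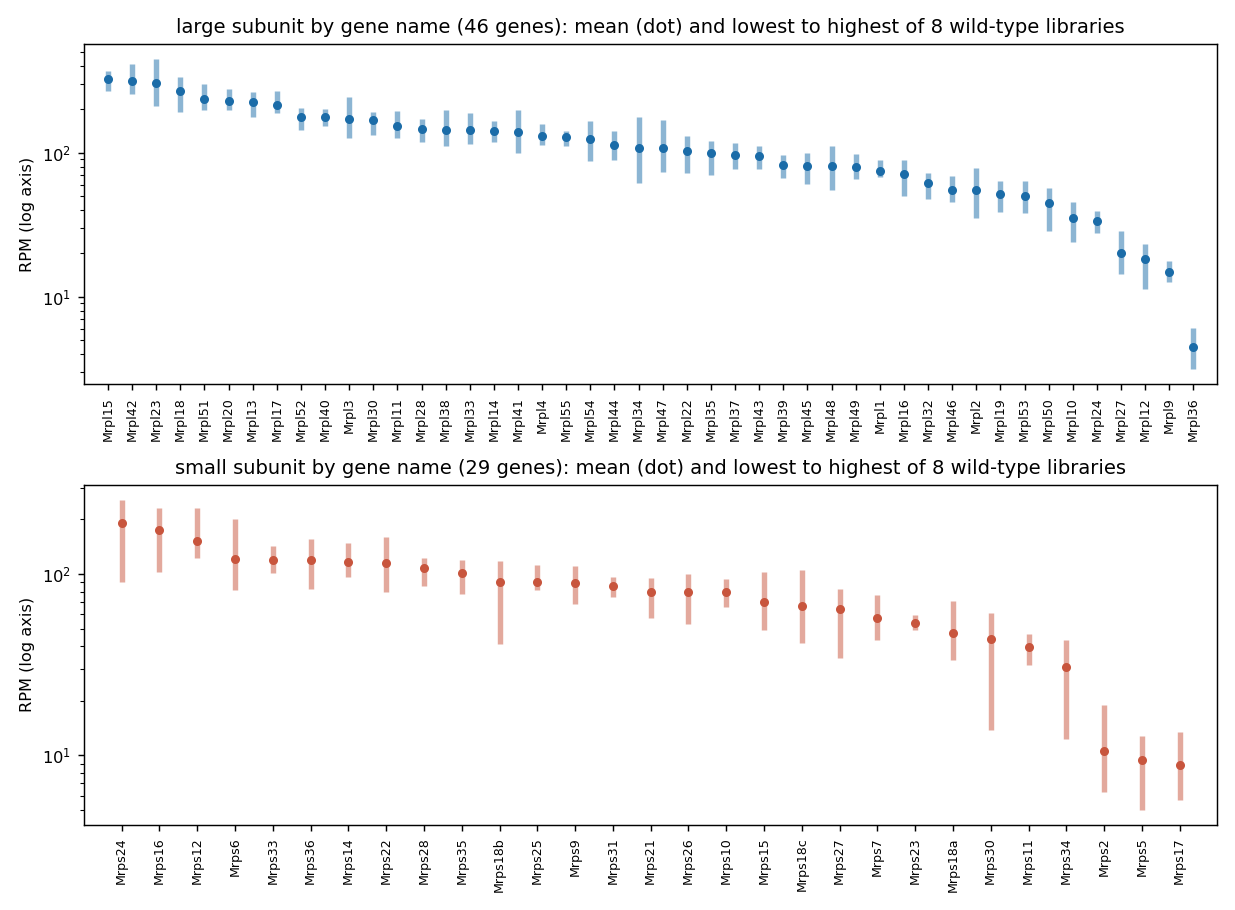
RPM on a log axis for each kept member, the upper panel for the 46 large-subunit and the lower for the 29 small-subunit genes, with the mean as a dot and the lowest to highest of the 8 wild-type libraries as a bar. Most members lie between 20 and 200 RPM, and Mrpl36 and the trio Mrps2, Mrps5 and Mrps17 lie lowest.

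Among the wild-type groups, the summed level of each subunit was lowest at E10.5. Large-subunit genes summed to 5293 and 5307 RPM in the E10.5 libraries and to 5698 and 6117 RPM in the E11.5 libraries, a ratio of means of 1.11 ± 0.0560 (propagated SD). Small-subunit genes summed to 2021 and 2098 RPM in the former and to 2572 and 2606 RPM in the latter, a ratio of 1.26 ± 0.0352. Both subunits were thus higher in both E11.5 than in both E10.5 libraries, and the ratio of large to small sums was 2.57 ± 0.0634 at E10.5 and 2.28 ± 0.0932 at E11.5 (SD, n = 2 each).

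At E13.5 the large-subunit sums were 5951 and 6024 RPM in males and 5514 and 5645 RPM in females, and the small-subunit sums were 2554 and 2666 RPM in males and 2385 and 2427 RPM in females. Both sums were lower in both female libraries than in both male libraries, at a female to male ratio of 0.932 ± 0.0175 for the large and 0.922 ± 0.0302 for the small subunit. In the floxed set the large-subunit sums were 5448 to 5777 RPM in Controls and 5367 to 5787 RPM in CKO-labelled libraries, and the small-subunit sums 2270 to 2504 and 2290 to 2431 RPM. The floxed groups overlapped in both subunits, with CKO-labelled to Control ratios of 0.987 ± 0.0447 and 1.00 ± 0.0521. No p is given for sums, since their members were chosen with results known.

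**Figure D2:**
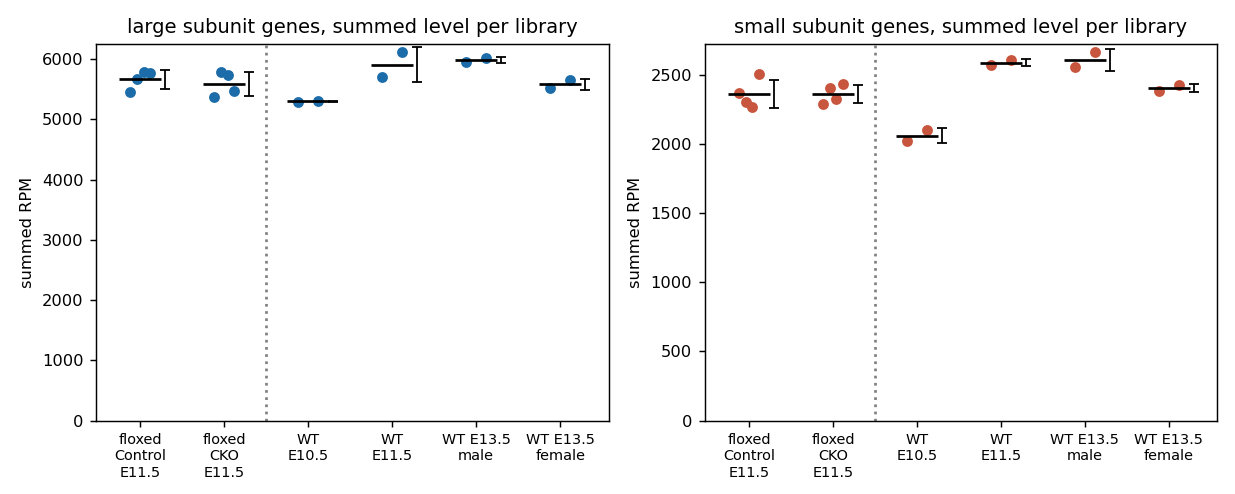
Summed RPM per library for large-subunit genes (left) and small-subunit genes (right) in the 6 groups, with dots for libraries, a line for the group mean and an error bar for the SD. The E10.5 libraries lie lowest in both panels, and the floxed groups left of the dotted line, which were normalised in a separate table, overlap each other.

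CKO-labelled libraries were set against Control libraries to see what differs at E11.5 after Cre induction in embryos with floxed Prdm1 alleles. Of the 74 kept members tested, 1 rose and 0 fell (limma on log2(RPM + 1), Benjamini-Hochberg adjusted p under 0.05 over all genes). Among all genes tested, 2.43% were called, 1.93% as higher and 0.501% as lower. The median log2 fold change was -0.03 in the large and 0.01 in the small subunit, beside -0.01 over all genes, and 34 of the 74 values were above zero. Member values spread with an SD of 0.15 on the log2 scale, against 0.32 for all genes. At an unadjusted p under 0.05, 2 members were higher and 2 lower.

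The member that rose was Mrps23 (Entrez gene 64656, chromosome 11, 88194106 to 88211507, GRCm38), which encodes a small-subunit protein without a bacterial counterpart. It was measured at 55.3, 64.1, 57.8 and 55.1 RPM in Control libraries 1 to 4 and at 72.0, 87.4, 82.1 and 82.9 RPM in CKO-labelled libraries 1 to 4. Every CKO-labelled library lay above every Control. The mean was 58.1 ± 4.17 RPM for Control and 81.1 ± 6.52 RPM for CKO-labelled cells (SD, n = 4 each), and the log2 fold change was 0.47 ± 0.11 (SE, limma, adjusted p = 0.0373). The call was lost in 10 of 20 alternative settings, with an adjusted p of 0.0698 without Control 1, 0.102 without Control 3, 0.104 without Control 4, 0.148 without CKO-labelled 2, 0.107 without CKO-labelled 3 and 0.0857 without CKO-labelled 4. In the wild-type libraries Mrps23 lay between 49.3 and 59.6 RPM at every stage.

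In the large subunit 0 members were called, and 1 was higher and 2 lower at an unadjusted p under 0.05. Of these, Mrpl41 gave 173, 188, 160 and 145 RPM in Controls and 125, 157, 133 and 117 RPM in CKO-labelled libraries, groups that overlapped (log2 fold change -0.32 ± 0.12, SE, limma, adjusted p = 0.235). Mrpl51, which like Mrpl41 encodes a protein added in mitochondria, gave 296, 253, 282 and 281 RPM in Controls and 252, 239, 226 and 218 RPM in CKO-labelled libraries. Its groups did not overlap, and its change of -0.25 ± 0.089 did not pass the test (adjusted p = 0.235).

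Genes that act with the mitochondrial ribosome were also mostly below the test's threshold in the floxed set, where 2.43% of all genes tested were called. None was called among 7 mitoribosomal proteins with other names, 14 mitochondrial translation factors, 17 mitochondrial aminoacyl-tRNA synthetases, 20 assembly and rRNA modification factors and 8 genes of mitochondrial DNA replication and transcription, by limma. At an unadjusted p under 0.05, 1 translation factor was higher and 1 lower, 2 assembly factors were higher, and the other 3 lists had 0. Among 10 nuclear regulators of mitochondrial genes, 1 fell, the forkhead transcription factor gene Foxo1, from 121 ± 11.8 to 77.5 ± 10.6 RPM (SD, n = 4 each; log2 fold change -0.64 ± 0.12, limma, adjusted p = 0.0119). Of 80 nuclear respiratory chain genes, 1 rose, the complex I gene Ndufs8 (0.66 ± 0.11, adjusted p = 0.00646), and of 82 cytosolic ribosomal protein genes 0 were called (2 higher and 1 lower at an unadjusted p under 0.05).

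Markers of other cells varied between floxed libraries. The 13 gonadal somatic and mesenchymal markers summed to at most 78.8 RPM in any Control and to between 10.3 and 281 RPM among the CKO-labelled libraries. Nr5a1 was at 0 in 4 of the 8 floxed libraries, whereas Col3a1 was at 4.31 to 112 RPM. The 8 endothelial markers summed to 33.3 to 42.6 and 31.9 to 130 RPM. Cdh5 was at 0 in all 8 libraries, whereas Egfl7 was at 12.7 to 50.8 RPM. The 4 pre-granulosa markers summed to 1.18 to 3.58 RPM in Controls and 5.17 to 16.1 RPM in CKO-labelled libraries, without overlap. Foxl2 was at 0 in 6 of the 8, whereas Fst was at 0.219 to 7.43 RPM. The part of the pre-granulosa markers in the results was not tested. The sums of germ cell, erythroid, macrophage, Sertoli and mesonephric markers overlapped between the floxed groups. With the somatic sum as a covariate Mrps23 had an adjusted p of 0.0682, and without Control 1 and CKO-labelled 4 it had 0.0971 (limma). In both of these fits 0 members were called.

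From E10.5 to E11.5 in wild-type PGCs, the members that passed the test all rose. Of 75 members, 6 rose and 0 fell, 4 of them of the small and 2 of the large subunit, and 0 were lower even at an unadjusted p under 0.05. Among all genes tested, 4.28% were called, 2.31% as higher and 1.97% as lower, a split of 248 to 212 that became 212 to 281 with median-ratio scaling, under which the members again numbered 6 and 0. The member median was 0.17 in the large and 0.20 in the small subunit on the log2 scale, beside 0.02 over all genes, and 59 of the 75 values were above zero. These include Mrpl36, which passed the filter through the E11.5 libraries alone, so its direction is not independent of the filter. With a filter at 20 RPM, which leaves Mrpl36 out, 55 of 70 were above zero, with medians of 0.15 and 0.22. Of the 6 that rose in the main fit, 4 have a bacterial counterpart and 2 do not, out of 45 and 29 members. Mrps36 was counted in neither class, and Mrps18a and Mrps18b were classed as without a counterpart, unlike Mrps18c.

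The largest rises were in the small subunit. Mrps24 (Entrez gene 64660, chromosome 11, 5703982 to 5707701, GRCm38), the counterpart of a bacterial protein of the messenger RNA entry site, rose from 89.8 and 117 RPM in the E10.5 libraries to 226 and 201 RPM in the E11.5 libraries (log2 fold change 1.05 ± 0.12, SE, limma, adjusted p = 1.38e-06). Mrps16 (Entrez gene 66242, chromosome 14, 20391222 to 20393634) rose from 103 and 109 to 191 and 180 RPM (0.80 ± 0.12, adjusted p = 9.72e-05). In both genes the E11.5 libraries stood well apart from the E10.5 libraries, and the E13.5 libraries lay in the E11.5 range or above it, except that Mrps24 stood at 194 and 198 RPM in females.

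Mrps12 (Entrez gene 24030, chromosome 7, 28739641 to 28741821), whose bacterial counterpart sits at the decoding centre, rose from 132 and 123 to 186 and 231 RPM (0.70 ± 0.13, limma, adjusted p = 0.00127). Mrps26, a mitochondrial addition, rose from 56.0 and 52.8 to 89.6 and 78.3 RPM (0.61 ± 0.15, adjusted p = 0.0137). In the large subunit Mrpl34 rose from 110 and 113 to 177 and 152 RPM (0.55 ± 0.13, adjusted p = 0.0157). Mrpl41, which has no bacterial counterpart, rose from 100 and 114 to 145 and 158 RPM (0.50 ± 0.13, adjusted p = 0.0211). No E10.5 library reached an E11.5 library in any of these genes. Leaving out E10.5 library 1 or 2 left 3 members called, with Mrpl34, Mrpl41 and Mrps26 lost each time, at adjusted p values of 0.0635 to 0.247. Without E11.5 library 1 the calls of Mrpl34 (adjusted p = 0.110) and Mrps26 (0.0834) were lost, and without E11.5 library 2 that of Mrpl41 (0.107). Without the variance trend in limma 0 of the 6 passed, at adjusted p values of 0.0805 to 0.206.

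The start regions of 4 of these genes are shown because their transcripts rose together, as the 200 bases before the RefSeq transcript start (GRCm38.p6), 5′ to 3′ on the gene's strand (for Mrps16 the farther of its listed starts), with capitals marking letters of a searched motif.
Mrps24, chr11:5707702-5707901, minus strand: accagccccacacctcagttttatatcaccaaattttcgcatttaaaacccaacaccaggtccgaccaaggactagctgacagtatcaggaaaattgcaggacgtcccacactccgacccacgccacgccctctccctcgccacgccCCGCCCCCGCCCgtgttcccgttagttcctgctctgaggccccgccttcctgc
Mrps16, chr14:20393635-20393834, minus strand: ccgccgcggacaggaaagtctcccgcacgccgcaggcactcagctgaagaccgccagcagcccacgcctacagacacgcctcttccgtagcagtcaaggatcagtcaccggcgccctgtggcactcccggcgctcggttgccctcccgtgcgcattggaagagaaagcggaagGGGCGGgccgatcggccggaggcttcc
Mrpl34, chr8:71464726-71464925, plus strand: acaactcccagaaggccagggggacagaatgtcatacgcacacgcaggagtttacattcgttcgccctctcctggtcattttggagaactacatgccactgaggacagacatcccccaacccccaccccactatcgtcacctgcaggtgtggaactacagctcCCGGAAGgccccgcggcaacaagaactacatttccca
Mrpl41, chr2:24975099-24975298, minus strand: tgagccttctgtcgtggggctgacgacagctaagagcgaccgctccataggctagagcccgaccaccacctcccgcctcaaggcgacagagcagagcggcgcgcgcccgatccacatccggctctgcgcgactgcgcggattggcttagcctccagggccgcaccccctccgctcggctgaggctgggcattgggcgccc

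The capitals mark CCGGAAG, the letters bound by ETS factors such as GABP, in Mrpl34 and GGGCGG, the Sp1 letters, on either strand in Mrps24 and Mrps16, and none of the searched letters lay in the stretch of Mrpl41. Mrps24 also has YY1 letters at bases 37 to 44 after its start, outside the stretch shown. The nearer start of Mrps16, not printed since the bases before it belong to the longer transcript, has ETS letters on both sides of it and Sp1 letters. Mrps12, with ETS, YY1 and Sp1 letters, and Mrps26, with NRF1, ETS and Sp1 letters, are not printed because their stretches run into annotated exons. Promoters of 300 bases were found in RefSeq for 67 of the 76 members and searched on both strands. A gene counted when any of its listed starts had a match, so genes with more starts had more chances. CCGGAAG was present in 24 of the 67 (35.8%), beside 22.4% of 8411 tested genes and 9.93% of 27025 genes in all. The YY1 letters AAGATGGC were present in 12 (17.9%), beside 6.02% and 3.19%. The NRF1 motif was present in 12 (17.9%), beside 13.1% and 5.19%, and GGGCGG in 33 (49.3%), beside 72.0% and 38.2%. At least one of NRF1, ETS and YY1 letters was found in 41 of 67 (61.2%), beside 36.4% of tested genes. A match is a description of letters and was not tied to binding here.

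A protein-coding neighbour on the other strand began at most 1000 bases before the start of 17 of the 76 members (22.4%). The shares were 11.3% of 9240 tested and 6.79% of 21938 protein-coding genes (GENCODE M21). Pairs whose annotated starts overlap were not counted. One such pair was Mrps12 and Sars2, the mitochondrial seryl-tRNA synthetase gene. Sars2 averaged 24.8 ± 0.670 RPM in the E10.5 and 38.9 ± 1.12 RPM in the E11.5 libraries (SD, n = 2 each), a log2 difference of 0.63 ± 0.21 that did not pass the test (limma, adjusted p = 0.0780).

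**Figure D3:**
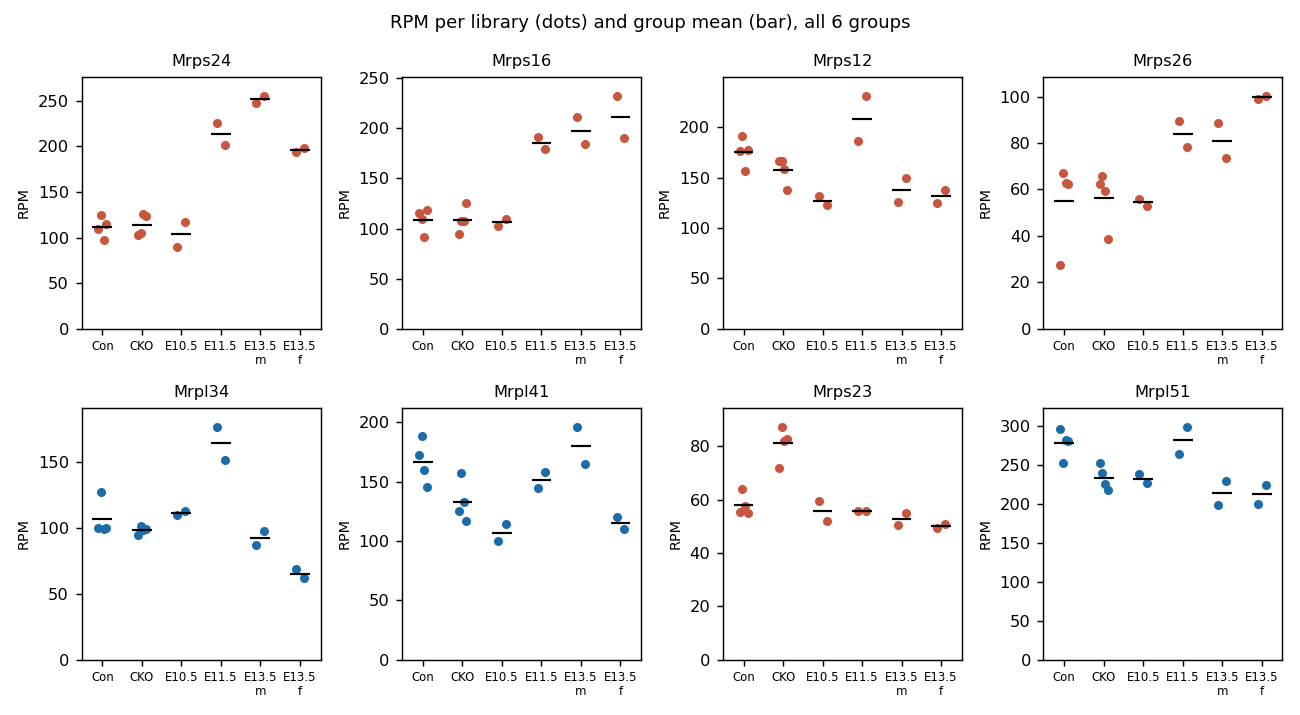
RPM per library (dots) and group mean (bar) in all 6 groups (Con, Control; m, male; f, female) for the 6 members that rose from E10.5 to E11.5 and for Mrps23 and Mrpl51, blue for large-subunit and red for small-subunit genes. Mrps24 and Mrps16 are high in the wild-type libraries from E11.5 on, and Mrps23 is highest in the CKO-labelled libraries.

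Set side by side and not tested, since the tables were normalised separately and the strains differ, some of these levels differed between the E11.5 libraries of both sets. Mrps24 was at 97.9 to 126 RPM in the 8 floxed libraries and at 201 and 226 RPM in the wild-type E11.5 libraries. Mrps16 was at 91.1 to 125 RPM in the floxed libraries and at 180 and 191 RPM in the wild-type ones. Mrps30 went the other way, with 83.6 to 117 RPM in the floxed and 49.8 and 61.2 RPM in the wild-type E11.5 libraries. These genes are examples, and other members also lay apart in either direction. Mrpl38 was at 74.9 to 93.9 RPM in the floxed and 148 and 139 RPM in the wild-type E11.5 libraries, and Mrpl3 at 172 to 219 against 128 and 126 RPM. Neither such members nor their share among all genes were counted.

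Among related genes in the same comparison, Cars2, the mitochondrial cysteinyl-tRNA synthetase gene, rose from 14.3 ± 5.30 to 26.3 ± 0.930 RPM (SD, n = 2 each, limma, adjusted p = 0.0394), as 1 of 17 synthetases, and 0 fell. Tfe3, which encodes a regulator of lysosomal and mitochondrial genes, fell from 95.5 ± 18.2 to 64.7 ± 9.58 RPM (adjusted p = 0.0398), as 1 of 10 regulators. Of 82 respiratory chain genes 5 rose and 0 fell, and of 82 cytosolic ribosomal protein genes 2 rose and 2 fell, while 4.28% of all genes were called. The median log2 fold change was 0.17 in respiratory chain genes, with 70 of 82 above zero, 0.19 in mitoribosomal proteins with other names and 0.18 in synthetases. These medians were near those of the members. It was 0.15 in assembly factors, 0.12 in translation factors, 0.06 in DNA replication and transcription genes, -0.01 in cytosolic ribosomal protein genes and -0.16 in regulators. None was called among 7 mitoribosomal proteins with other names, 15 translation factors, 21 assembly factors and 9 DNA replication and transcription genes, of which 1, 0, 1 and 1 were higher and 0, 0, 2 and 1 lower at an unadjusted p under 0.05.

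Reads of some other cell types were more frequent in the E10.5 than in the E11.5 libraries. The 7 erythroid markers summed to 227 and 247 RPM in the E10.5 libraries and to 6.26 and 16.8 RPM in the E11.5 libraries, and the 13 somatic and mesenchymal markers to 64.1 and 73.0 against 6.06 and 9.96 RPM. The 8 endothelial markers gave 38.7 and 52.8 against 30.3 and 35.9 RPM, and the 5 mesonephric markers 31.1 and 36.1 against 29.0 and 30.7 RPM. The macrophage (4.04 to 10.4 RPM), pre-granulosa (2.24 to 7.67 RPM) and Sertoli markers (0 to 3.52 RPM) overlapped between these stages. The 10 germ cell markers were at 4655 and 4705 RPM at E10.5 and at 5250 and 5350 RPM at E11.5. Their part in the result was not tested.

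From E11.5 to E13.5, taken as the mean of both sexes, members changed in both directions. Of 75 members, 10 rose and 20 fell, 8 and 14 of the large and 2 and 6 of the small subunit (limma). Among all genes tested, 47.9% were called, 29.0% as higher and 18.8% as lower, so the 40% share of members called lay below the background. The median log2 fold change was -0.13 in the large and -0.07 in the small subunit, beside 0.11 over all genes. Other scalings moved that all-gene median from 0.11 to 0.01 (median-ratio) or -0.01 (quantile) and gave 5 rises and 25 falls, or 7 and 25, among members. For all genes the same scalings turned a split of 3121 to 2025 into 2614 to 2513 or 2555 to 2560. The members' median lay below that of all genes under each scaling. Without E11.5 library 2 the medians were -0.03 and -0.02, beside 0.08 over all genes, and 9 members rose and 13 fell. Leaving out E11.5 library 1 gave 6 rises and 16 falls. The share of all genes called also fell in both of these fits. The 8 endothelial markers summed to 30.3 and 35.9 RPM at E11.5 and to 6.90 to 10.7 RPM in the E13.5 libraries. The pre-granulosa markers went the other way, from 4.71 and 3.70 RPM at E11.5 to 8.02 to 14.1 RPM. Sums of the erythroid, macrophage, mesonephric, Sertoli and other somatic markers overlapped between these stages. The 10 germ cell markers summed to 5250 and 5350 RPM at E11.5, 5683 and 5866 RPM in E13.5 females and 9136 and 9538 RPM in E13.5 males. The part of these markers in the changes was not tested.

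The largest rises were in Mrpl23 and Mrpl3. Mrpl23, the counterpart of a bacterial protein at the exit of the peptide tunnel, was at 211 and 236 RPM at E11.5, 372 and 443 RPM in E13.5 males and 331 and 350 RPM in E13.5 females (log2 fold change 0.74 ± 0.09, SE, limma, adjusted p = 1.68e-07). Mrpl3, whose bacterial counterpart lies near the peptidyl transferase centre, was at 128 and 126 RPM, then 178 and 185 in males and 239 and 244 in females (0.72 ± 0.10, adjusted p = 6.34e-07). Every E13.5 library lay above both E11.5 libraries in each gene. Mrpl48, a mitochondrial addition, was at 68.0 and 70.3 RPM, then 86.5 and 93.7 in males and 111 and 99.0 in females (0.48 ± 0.12, adjusted p = 0.00216).

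In the small subunit Mrps22, in which variants are known from mitochondrial disease, was at 93.6 and 86.0 RPM at E11.5, 125 and 131 RPM in males and 156 and 159 RPM in females (0.66 ± 0.11, limma, adjusted p = 1.77e-05). Mrps21, with a bacterial counterpart, was at 71.4 and 75.7 RPM, then 84.8 and 90.9 in males and 95.5 and 94.6 in females (0.31 ± 0.13, adjusted p = 0.0437). In both genes all E13.5 libraries lay above all E11.5 libraries. The call of Mrps21 was lost in 12 of 17 alternative settings, among them each fit without 1 library, at adjusted p values of 0.0518 to 0.170. The other large-subunit members that rose were Mrpl47, Mrpl42, Mrpl13, Mrpl35 and Mrpl44, by 0.27 to 0.43 on the log2 scale.

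Mrpl34, which had risen at E11.5, had the largest fall in the large subunit, from 177 and 152 RPM to 87.2 and 97.5 RPM in males and 69.0 and 61.7 RPM in females (-1.07 ± 0.12, limma, adjusted p = 2.12e-08). Mrpl18, the counterpart of a bacterial protein that binds ribosomal RNA, fell from 306 and 333 RPM to 211 and 191 in males and 214 and 227 in females (-0.60 ± 0.09, adjusted p = 2.89e-06). No E13.5 library reached an E11.5 library in these genes. Mrpl2, from the peptidyl transferase region, fell from 55.2 and 77.7 RPM to 37.4 and 54.9 in males and 48.9 and 35.4 in females (-0.58 ± 0.17, adjusted p = 0.00743), and its call was lost without E11.5 library 2 (-0.34, adjusted p = 0.219) or male library 1 (-0.45, adjusted p = 0.0607).

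In the small subunit by name, Mrps30, Mrps18b and Mrps34 fell most, and in each the female libraries were lowest. Mrps30, whose protein sits in the large subunit despite its name, was at 49.8 and 61.2 RPM at E11.5, 45.4 and 48.9 RPM in males and 13.8 and 28.5 RPM in females (-0.83 ± 0.20, limma, adjusted p = 0.00120). Mrps18b was at 117 RPM in both E11.5 libraries, 103 and 100 RPM in males and 41.2 and 52.6 RPM in females (-0.75 ± 0.12, adjusted p = 1.44e-05). Mrps34, a small-subunit protein added in mitochondria, was at 41.8 and 32.7 RPM, then 29.4 and 36.3 in males, which overlapped the E11.5 values, and 12.3 and 16.4 in females (-0.75 ± 0.20, adjusted p = 0.00309). Its call was lost without E11.5 library 1 (-0.57, adjusted p = 0.0660).

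The other members that fell were Mrpl51, Mrpl17, Mrpl40, Mrpl16, Mrpl10, Mrpl15, Mrpl43, Mrpl20, Mrpl22, Mrpl53 and Mrpl50 of the large and Mrps12, Mrps27 and Mrps18a of the small subunit by name, by 0.24 to 0.62 on the log2 scale. With Mrps18a and Mrps30 counted in the large subunit, 8 rose and 16 fell there, and 2 rose and 4 fell in the small. Groups overlapped in Mrps27, Mrpl22 and Mrpl50, and another annotated gene overlaps the 3′ end of Mrpl10 (Gm11574, opposite strand) and of Mrpl53 (Gm42688, same strand). Of members with a bacterial counterpart 6 of 45 rose and 10 fell, and of those without 4 of 29 rose and 10 fell.

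**Figure D4:**
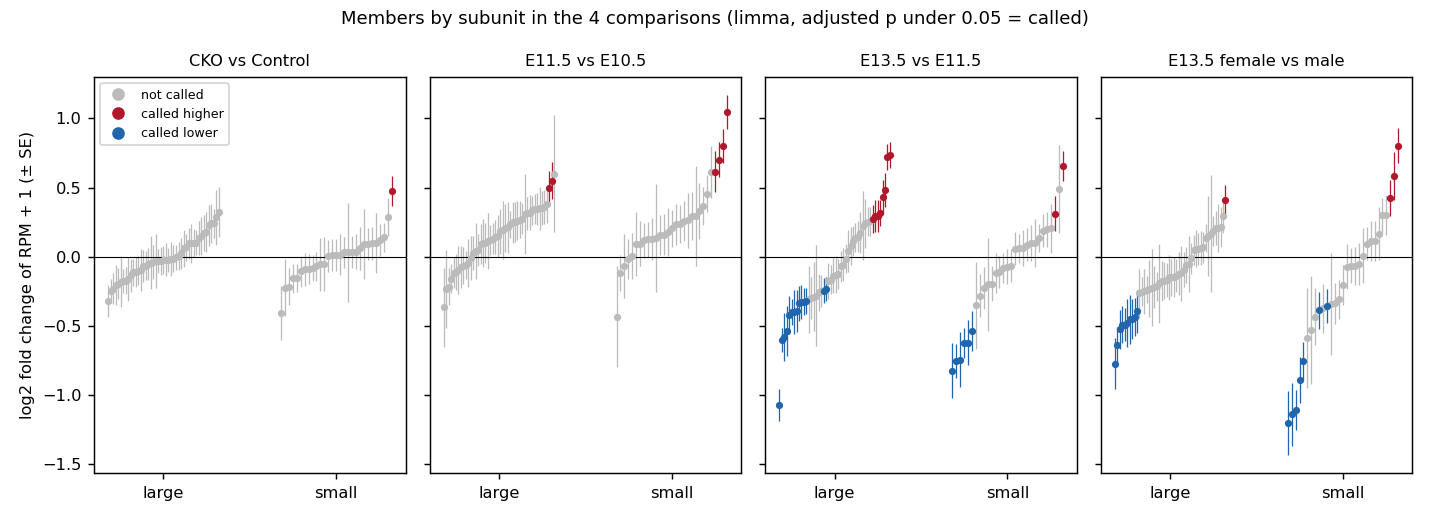
Log2 fold change of RPM + 1 with its SE for each member, sorted within the large and small subunit, in the 4 comparisons, with red for members called higher and blue for members called lower. Called members are 1 in the CKO-labelled comparison, 6 from E10.5 to E11.5, 30 from E11.5 to E13.5 and 21 between the sexes.

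Between E13.5 females and males, most members that passed the test were lower in females. Of 75 members, 4 were higher and 17 lower in females, 1 and 10 of the large and 3 and 7 of the small subunit (limma). Among all genes tested, 37.6% were called, 21.2% as higher and 16.4% as lower in females, beside 28% of the members, and the median member was lower by 0.15 on the log2 scale, while the median of all genes was 0.05. Since both sexes are set against the same E11.5 libraries, this contrast equals the difference between their changes from E11.5 and is no second test. Among the 29 members classed as without a bacterial counterpart 0 were higher and 10 lower, with 2 higher at an unadjusted p under 0.05. Among the 45 with one 3 were higher and 7 lower. Mrps36, which was higher in females, was left out of both classes. Without male library 2 the median was -0.15 in the large and -0.14 in the small subunit, beside 0.05 over all genes. Without female library 1 these medians were -0.13 and -0.15, beside 0.06.

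Mrps30, Mrps34 and Mrps18b had the largest differences with all libraries included, whose libraries are given with the fall from E11.5. The log2 difference of females from males was -1.20 ± 0.23 in Mrps30 (SE, limma, adjusted p = 0.000138), -1.14 ± 0.23 in Mrps34 (adjusted p = 0.000264) and -1.11 ± 0.14 in Mrps18b (adjusted p = 5.54e-07). The value of Mrps30 rests on female libraries that differ, and it was -0.71 without female library 1 (adjusted p = 0.0237) and -1.70 without female library 2 (adjusted p = 3.48e-06). In each of these genes the male libraries lay near the E11.5 libraries and the female libraries apart from both. Mrps18b (Entrez gene 66973, chromosome 17, 35910380 to 35916440, GRCm38) overlaps Gm16279, an annotated antisense transcript, within its last 300 bases. The strand used in counting is not given in the sources used here, so reads of this pair may not be separated.

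In the large subunit Mrpl50, added in mitochondria, was at 46.8 and 57.0 RPM in males and 28.6 and 31.0 RPM in females (-0.77 ± 0.18, limma, adjusted p = 0.00130). Mrpl41 was at 196 and 164 RPM in males and 120 and 110 RPM in females (-0.64 ± 0.13, adjusted p = 0.000212). Mrpl47, with a bacterial counterpart at the tunnel exit, was at 169 and 136 RPM in males and 104 and 106 RPM in females (-0.53 ± 0.14, adjusted p = 0.00369). All male libraries were above all female libraries in these genes, and the call of Mrpl47 was lost without male library 1 (-0.37, adjusted p = 0.106). The others lower in females were Mrpl38, Mrpl34, Mrpl37, Mrpl22, Mrpl19, Mrpl46 and Mrpl45 of the large and Mrps6, Mrps27, Mrps24 and Mrps14 of the small subunit, by 0.36 to 0.89 on the log2 scale. The last bases of Mrpl19 also overlap another gene, Gcfc2, on the other strand.

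Higher in females was first Mrps36, at 92.5 and 82.4 RPM in males and 150 and 157 RPM in females (0.80 ± 0.13, limma, adjusted p = 1.07e-05). Its protein, named as a ribosomal one, is known as a part of the 2-oxoglutarate dehydrogenase complex of the citric acid cycle. Mrpl3 was at 178 and 185 RPM in males and 239 and 244 RPM in females (0.41 ± 0.11, adjusted p = 0.00468). Groups did not overlap in either gene.

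Mrps28 was at 85.8 and 89.1 RPM in males and 118 RPM in both female libraries (0.43 ± 0.13, limma, adjusted p = 0.0123), a call lost without male library 1 (adjusted p = 0.0709), female library 1 (0.0717) or female library 2 (0.0698). Mrps15, the counterpart of a bacterial protein that binds ribosomal RNA early in assembly, was at 60.1 and 49.3 RPM in males and 103 and 65.2 RPM in females (0.58 ± 0.18, adjusted p = 0.00981). Its female libraries differed widely, and the call was lost without female library 1 (0.26, adjusted p = 0.387) or male library 2 (0.44, adjusted p = 0.155).

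**Figure D5:**
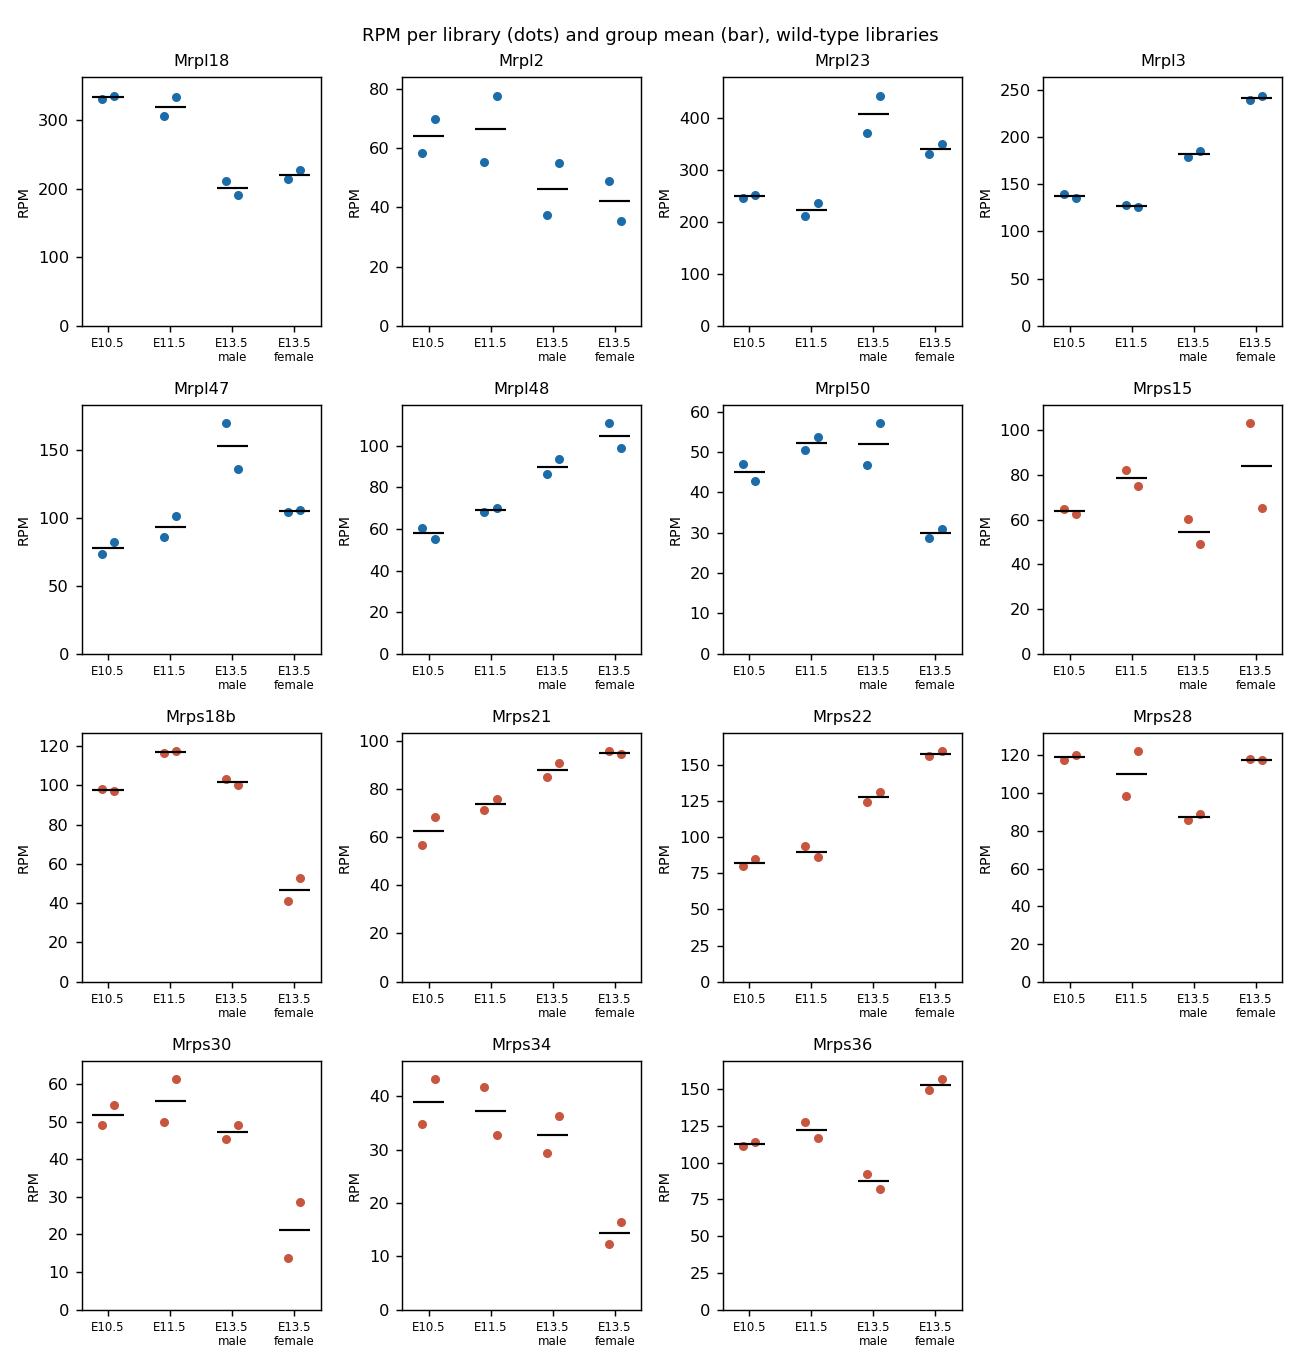
RPM per library (dots) and group mean (bar) in the 4 wild-type groups for members named at E13.5, blue for large-subunit and red for small-subunit genes. Mrps18b, Mrps30 and Mrps34 are lowest in E13.5 females, Mrps36 is highest there, and Mrpl23 is high in both sexes at E13.5.

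Genes that act with the mitochondrial ribosome were also tested at E13.5. Against E11.5, 47.9% of all genes tested were called, beside 20% of translation factors, 29.4% of synthetases and 22.2% of DNA replication and transcription genes. Of assembly factors 4.76% were called, and of the 7 mitoribosomal proteins with other names 57.1%. From E11.5 to E13.5, 3 of 15 translation factors rose and 0 fell, namely the ribosome recycling factor gene Mrrf (30.8 ± 1.59 to 48.6 ± 5.16 RPM), the formyltransferase gene Mtfmt and the initiation factor gene Mtif2 (SD, n = 2 and 4). Of 17 synthetases 4 rose, Rars2, Iars2, Fars2 and Lars2, and 1 fell, Mars2. Of 9 genes of mitochondrial DNA replication and transcription 2 rose, Ssbp1, which encodes the single-stranded DNA binding protein (135 ± 5.29 to 254 ± 39.0 RPM), and Lrpprc, which encodes a messenger RNA stabiliser. Of 7 mitoribosomal proteins with other names Dap3 rose and Gadd45gip1, Mrp63 and Aurkaip1 fell, and of 21 assembly factors 0 rose and 1 fell, Fastkd2. Fastkd2 averaged 40.3 ± 13.1 RPM at E11.5, 46.9 ± 4.55 RPM in males and less in females, so only the female mean lay below that of E11.5.

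Among the 10 regulators, of which 40% were called beside 47.9% of all genes, Nrf1 (19.5 ± 1.00 to 32.8 ± 3.63 RPM) and Foxo1 rose. Esrra and Mycn fell. Esrra averaged 26.7 ± 7.31 RPM at E11.5, 7.49 ± 2.63 RPM in males and 33.0 ± 7.13 RPM in females, so only the male mean lay below that of E11.5. Cytosolic ribosomal protein genes had 6 rises and 33 falls of 82 at E13.5 (47.6% called), and respiratory chain genes 31 rises and 16 falls of 82 (57.3% called). These 2 lists and the members therefore differed in their counts of rises and falls, which were not tested against each other.

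Between the sexes, 5 of the 17 synthetases were lower in females and 0 higher, Yars2 (89.3 ± 0.194 RPM in males, 51.3 ± 11.9 in females), Ears2, Pars2, Mars2 and Aars2 (SD, n = 2 each, limma, adjusted p of 0.000353 to 0.0162). Of 21 assembly factors Noa1, Trmt2b and Gtpbp10 were higher and Fastkd2 and Ngrn lower. Called shares were 29.4% of synthetases, 23.8% of assembly factors and 44.4% of DNA replication and transcription genes, beside 37.6% of all genes. Fastkd2, an RNA-binding factor needed for the large subunit, was at 46.9 ± 4.55 RPM in males, with a female to male ratio of 0.341 (log2 difference -1.51 ± 0.23, adjusted p = 6.25e-06). Polg, the mitochondrial DNA polymerase gene, and Top1mt were higher in females, and Polrmt, the mitochondrial RNA polymerase gene (60.3 ± 1.13 against 32.2 ± 1.75 RPM), and Tfam were lower, out of 9 genes.

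Of the regulators Esrra and Gabpa were higher and Yy1, Foxo1 and Pprc1 lower in females, out of 10 (50% called, beside 37.6% of all genes). Esrra, an orphan nuclear receptor gene, was at 7.49 ± 2.63 RPM in males and 33.0 ± 7.13 RPM in females (2.02 ± 0.28, limma, adjusted p = 1.82e-06), and Yy1 at 91.4 ± 2.70 and 52.0 ± 2.18 RPM (-0.80 ± 0.15, adjusted p = 8.18e-05). Among other lists 1 of 15 translation factors (Mtrf1l, 6.67% called) and 1 of 7 mitoribosomal proteins with other names (Gadd45gip1, 14.3% called) were lower. In either list 0 were higher. Respiratory chain genes were higher in 19 and lower in 12 of 82 (37.8% called), and cytosolic ribosomal protein genes higher in 12 and lower in 13 of 82 (30.5% called).

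At E13.5 the 10 germ cell markers summed to 9136 and 9538 RPM in males and 5683 and 5866 RPM in females. The 4 Sertoli markers summed to 8.10 and 18.7 RPM in males and 0 and 0.274 RPM in females. Amh was at 0 in 7 of the 8 wild-type libraries, whereas Ptgds reached 11.4 RPM. The 4 pre-granulosa markers overlapped between the sexes at 8.02 to 14.1 RPM. Foxl2 was at 0 in 7 of the 8 wild-type libraries, whereas Rspo1 reached 12.3 RPM. The 13 somatic and mesenchymal markers gave up to 16.2 RPM in males and 6.90 and 8.77 RPM in females, and the 7 erythroid markers 5.01 and 7.04 against 31.2 and 37.6 RPM. The 5 mesonephric markers gave 6.01 and 6.69 RPM in males and 29.1 and 31.8 RPM in females, and the 6 macrophage markers 0.704 and 1.34 against 2.72 and 5.48 RPM. Their part in the differences was not tested. Over the 4 comparisons, which share libraries, 45 kept members were called in at least 1 and 30 in none. Of all genes tested, 2.43%, 4.28%, 47.9% and 37.6% were called in the single comparisons, in the order given above. The share of all genes called in at least 1 was not counted, so the 45 cannot be set against it.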

How the data were processed

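RNA of sorted mouse primordial germ cells was sequenced from transcript 3′ ends in 16 libraries, after cDNA amplification with 11 PCR cycles per the labels' protocols. Per the submitters' processing notes, the tools were cutadapt 1.3, TopHat 1.4.1 and Cufflinks 2.2.0 with mm10, and the authors deposited RPM values (reads scaled to a common library total and not divided by length), in one table for the floxed and one for the wild-type libraries. The strand used in counting is not given in the sources used here. The 92 ERCC spike-in rows of the wild-type table were left out of all fits.

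Values were tested as log2(RPM + 1), which understates changes of low genes, with limma 3.58.1 (lmFit, eBayes with trend) in R 4.3.3, each table alone. The filter was 5 RPM in 4 libraries of the floxed or 2 of the wild-type table, and calls were made at an adjusted p under 0.05 (Benjamini-Hochberg, over all genes tested). The wild-type groups shared 1 fit and hence libraries between comparisons. Low values in a library were whole multiples of 1 step, within 0.05 reads, for 97.5% to 99.7% of values, which gave the depth. Some values were fractional, so no count model was run, and limma voom on the reads from these steps was added after seeing the data. Other alternatives were the pseudocount, filter, scaling, variance model, a replicate block, the groups fitted and each library left out.

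Members and lists were chosen with earlier results of these data known. Named members are those called, or, where more than 6 were called in a subunit, the 3 largest rises and 3 largest falls, the 2 with the smallest p where none was called, the 3 highest and lowest by mean RPM, and those next to the threshold. Of each other list up to 3 genes with the smallest p are given with values, and further called genes by name. RefSeq (GRCm38.p6) gave promoters and positions, and all 76 members matched a position. Letters were searched for the factors NRF1, ETS, YY1 and Sp1. The lists are mitoribosomal proteins with other names, translation factors, aminoacyl-tRNA synthetases, assembly and rRNA modification, mitochondrial DNA replication and transcription, nuclear regulators, cytosolic ribosomal proteins, respiratory chain genes, and markers of germ cells, red blood cells, macrophages, endothelium, mesonephros, Sertoli, pre-granulosa and other gonadal somatic cells.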

Additional observations from a re-analysis of the deposited data

Results flagged for a closer look

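In the floxed groups of 4, Dixon's test at 95% marked 1 library far from the other 3 of its group in 6 of 68 checks, where chance marks about 1 in 20. The checks covered named members and the summed levels of each subunit, and no sum was marked. These were Mrpl12 in CKO-labelled 1 (12.8 RPM), Mrpl34 in Control 2 (128 RPM), Mrpl36 in CKO-labelled 2 (2.78 RPM), Mrps21 in Control 4 (101 RPM), Mrps26 in Control 1 (27.4 RPM) and Mrps5 in Control 1 (2.06 RPM).

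Of the 21 members called between the sexes at E13.5 by limma (28%, beside 37.6% of all genes), 10 are named members. Both sexes are set against the same E11.5 libraries, so the values below repeat that contrast and are no second test. The female change minus the male change, on the log2 scale, was 0.80 for Mrps36, 0.58 for Mrps15, 0.43 for Mrps28, 0.41 for Mrpl3, -0.53 for Mrpl47, -0.64 for Mrpl41, -0.77 for Mrpl50, -1.11 for Mrps18b, -1.14 for Mrps34 and -1.20 for Mrps30.

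The ERCC spike-in rows, which no comparison used, summed to between 11006 RPM (E13.5 female 2) and 19252 RPM (E11.5 library 2) in the wild-type libraries.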

How the results depend on the processing

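Among 30 results for named members, 28 passed the test, 14 of these passed under every alternative run, 14 were lost under at least one, and 0 reversed. The number of members called in the CKO-labelled comparison fell from 1 to 0 without a filter, without a variance trend, with the somatic marker covariate and without both Control 1 and CKO-labelled 4, and was 0 to 1 with each replicate left out in turn. From E10.5 to E11.5 it was 6, and 2 without a filter, 0 without a variance trend, 3 with only the compared groups in the fit and 10 with limma voom, with 3 to 8 when a replicate was left out. Over all genes the share called, 4.28% at first, was 0.433%, 0.251%, 0.735% and 5.12% under these 4 alternatives. From E11.5 to E13.5 the number of members called was 30, and 19 without a filter and 13 without a variance trend, while the share of all genes called went from 47.9% to 25.4% and 39.0%. Between the sexes it was 21, and 9 without a variance trend, with 12 to 16 when a replicate was left out. Over all genes the share called between the sexes went from 37.6% to 28.2% without a variance trend, and it also fell with each replicate left out. With median-ratio scaling the summed E13.5 to E11.5 ratio was 0.913 for the large and 0.904 for the small subunit, and the female to male ratio of the large subunit was 0.909. The cause of these shifts was not tested. A replicate block left the counts at 1, 8, 31 and 22 in the same order. The labels name nothing that libraries of the same number share. In the floxed set, the correlation of same-numbered libraries ran from 0.0198 to 0.252, and 6 of 8 libraries correlated best with their own number. A planned count model was not run, as some values are fractional. Depth limits the lowest members, such as Mrpl36, and with 2 libraries a group the wild-type fits rest on a spread shared over groups.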
